A study of Mus musculus with 6 samples.

Results

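Complement is a system of plasma and membrane proteins that marks microbes and damaged cells and can open pores in their membranes. It is started by C1 bound to antibody (the classical pathway), by collectins and ficolins bound to sugars (the lectin pathway), or by C3 that turns over on its own and is amplified by factor B (the alternative pathway), and regulators hold each step in check on host cells. The liver makes most plasma complement, and fibroblasts are known as a local source of some components, whereas C1q comes mainly from macrophages. The genes described here were a named list of 9 complement components and regulators, C3, C4b, C1ra, C1qa, Cfb, C2, Serping1, Cd55 and Masp1, among 25039 genes in the deposited table. Each gene was represented by its RefSeq transcript with the highest mean.

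RNA-Seq was performed on total RNA of primary mouse embryonic fibroblasts (MEFs), 3 WT libraries and 3 Anp32e null libraries. The Anp32e null cells came from Anp32e-/- embryos, which lack the chaperone ANP32E that removes the histone variant H2A.Z from chromatin. Cells of both genotypes were donated primary cultures, kept below passage 8 in DMEM with serum and antibiotics and given no treatment. The values used are means over all 6 libraries of counts divided by size factors (normalized counts), so they describe both genotypes together, and no value here compares WT with Anp32e null cells. A mean carries no spread. Reads per library could be solved for genes with means up to 25, so the spread over the 6 libraries is given for C4b, C2 and C1qa but not for the other members, whose order could not be set against replicate error. Anp32e itself had a mean of 2190 normalized counts over both genotypes, which cannot show whether each library matches its label.

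Masp1 stood far above the other members, 5 members lay between 20.0 and 65.7 normalized counts per kb, and C2, C4b and C1qa were lower still. At a minimum mean of 10 normalized counts, 7 of 9 members were detected, beside 56.9% of all genes in the table. C2 reached this minimum only with its highest library: without that library its mean was 9.42, 1.65 times lower, and 6 of 9 members were detected. The members' median was 102.7 normalized counts, and the median over all genes was 43.3. Levels of different genes were compared per kb of exonic transcript length. On that scale 15728 genes with a mean of at least 1 had a median of 204 normalized counts per kb, and 7 of the 8 members that reached this mean lay below it. This position depended on the filter: over all genes with a length the median was 21.4 per kb, and C1ra, Serping1, Cd55 and Cfb, at percentiles from 54.3 to 56.6, then lay above it with Masp1.

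**Figure D1:**
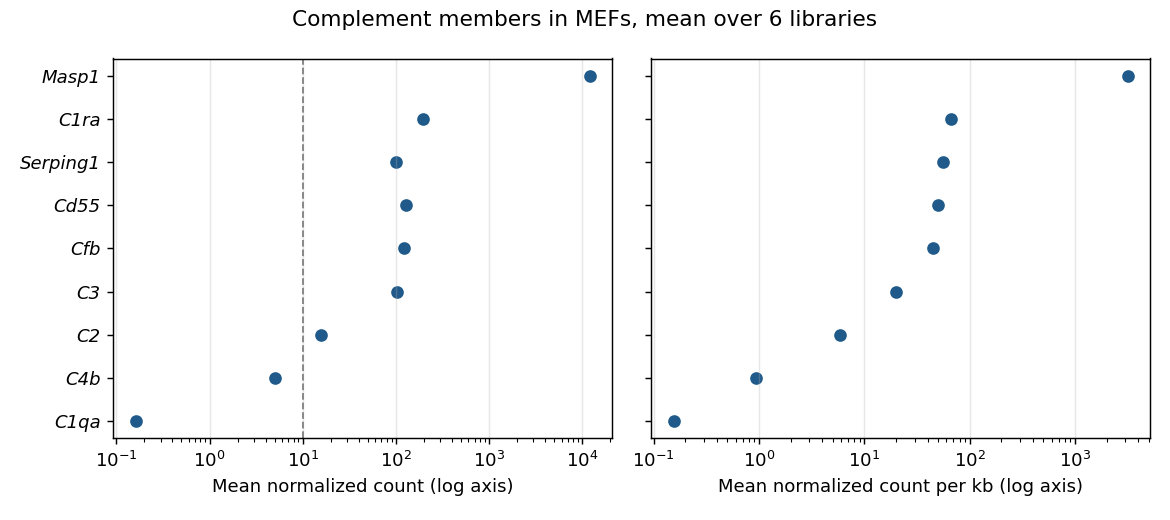
Mean normalized count (left) and mean normalized count per kb of transcript (right) of the 9 members over 6 MEF libraries, both on log axes; each point is 1 pooled mean and the dashed line marks 10 normalized counts. Masp1 lay at 3171 normalized counts per kb and C1ra, the next, at 65.7.

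The start of the classical pathway was represented unevenly. C1qa encodes a chain of C1q, the part of C1 that recognizes antibody, and its mean of 0.162 normalized counts came from 1 read in 1 of the 6 libraries. The genes of the other C1q chains, C1qb and C1qc, lie beside it on chromosome 4, with C1qb at 0 in all 6 libraries and C1qc at 1 read in 1 library. These values are under a floor of 3 reads over all libraries, so C1q transcripts were not detectable at this depth. C1ra encodes C1r, the protease that C1q activates first, and had 196 normalized counts, or 65.7 per kb, at the 36.0 percentile of genes. C1s1, which lies 6903 bases from C1ra on chromosome 6 on the opposite strand and encodes the protease that C1r cleaves, had 304 normalized counts. Its level of 103 per kb was 1.57 times that of C1ra. Both protease genes of C1 were thus detected where its recognition chains were not.

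C1ra has a near copy, C1rb, and 48.0% of the 50-base windows of the C1ra transcript occur unchanged in that of C1rb. C1rb held 9 reads in all, in 4 of 6 libraries, and the mean of C1ra was 131 times that of C1rb. C1s2, the near copy of C1s1, held 3 reads in all. Reads that match both copies can be placed on either or dropped, so the low values of the copies are uncertain.

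C4 and C2, which C1s cleaves to form the classical C3 convertase, lay below both protease genes of C1 per kb. C4b had a mean of 5.01 normalized counts, or 0.931 per kb, at the 5.02 percentile. Its reads in the 6 libraries, taken from the highest size factor to the lowest, were 13, 4, 2, 4, 2 and 6. After division by size factors the lowest library had 1.95 and the highest 11.5, and their 95% exact Poisson intervals overlapped. C4a, a near copy of C4b on chromosome 17 that the RefSeq annotation lists as a transcribed pseudogene, had 21.8 normalized counts, 4.36 times the mean of C4b. The aligned bases of the C4b coding sequence and the C4a transcript were 96.1% identical, and 35.2% of the 50-base windows of C4b occurred unchanged in C4a. The split of reads between both genes is therefore uncertain. The stretches below are shown because they are where reads of C4b and C4a can best be told apart: the 60-base window with the most differing bases, 13, at coding bases 2705 to 2764 of C4b and bases 2755 to 2814 of the C4a transcript, in GENCODE models on GRCm38, minus strand, with differing bases in capitals.
C4b: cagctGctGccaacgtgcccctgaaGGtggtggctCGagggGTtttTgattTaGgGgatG
C4a: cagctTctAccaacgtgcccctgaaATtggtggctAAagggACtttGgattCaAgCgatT

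C2, the protease part of the classical convertase, had a mean of 15.5 normalized counts and 5.89 per kb, at the 16.9 percentile. Its mean hid a wide range between libraries. In the same order of libraries, C2 had 2, 1, 28, 0, 16 and 42 reads, with a median of 9.44 normalized counts. The highest library reached 46.2 normalized counts with a lower 95% exact Poisson bound of 33.3, above the upper bound of 3.74 in the library at 0. The variance of C2 over the 6 libraries was 22.2 times its mean, beside a median ratio of 3.24 over 1112 genes with means between 10 and 25, and C2 stood at the 98.8 percentile of these genes. That spread holds any difference between the genotypes as well as between cultures of 1 genotype, which cannot be told apart here because the libraries carry no sample name. Intervals and floors cover counting error only, since reads without molecular identifiers are not independent molecules.

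**Figure D2:**
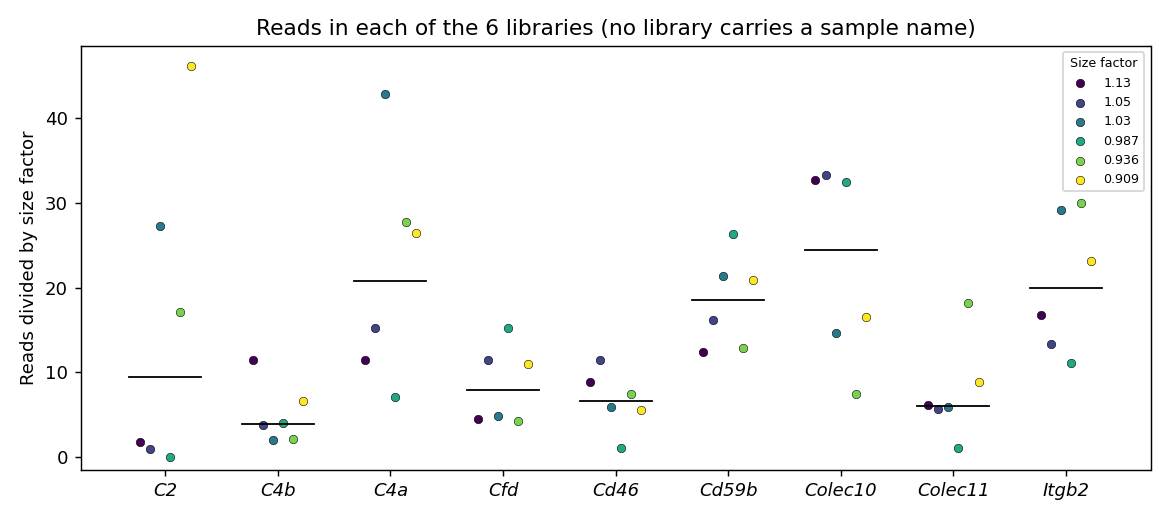
Reads divided by size factor in each of 6 libraries for 9 complement genes with means between 5 and 25 normalized counts; points are libraries, coloured by size factor, and lines are medians. C2 ran from 0 to 46.2, and Cd59b from 12.4 to 26.3.

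C3, the component on which every pathway converges, and factor B, which binds C3b to form the alternative convertase, were both detected. C3 had 102.7 normalized counts over a transcript of 5136 nt, or 20.0 per kb, at the 25.6 percentile. Cfb had 123 normalized counts, shared by both of its transcripts in the table, and 45.0 per kb, at the 32.6 percentile. Cfb and C2 encode related proteases and lie 87 bases apart on the same strand of chromosome 17, and the level of Cfb per kb was 7.64 times that of C2, whose mean fell from 15.5 to 9.42 without its highest library. None of the 50-base windows of the Cfb transcript occurs in that of C2. Reads that run from one gene past its end into the next could not be separated from its own, and on its other side Cfb lies 1 base from Nelfe, a gene on the opposite strand with 3472 normalized counts. The study's methods name a stranded kit and default settings, under which featureCounts does not use strand, so reads of overlapping genes on opposite strands may not be told apart. The defaults also drop reads that overlap several features, whereas reads on exons shared by transcripts were taken as counted for each, as described below. The settings used are therefore uncertain.

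Regulators were represented by Serping1 and Cd55. Serping1 encodes C1 inhibitor, which inactivates C1r and C1s, and had 99.4 normalized counts, or 56.2 per kb, at the 34.6 percentile. Cd55 encodes decay-accelerating factor, a membrane protein that breaks up C3 convertases, and had 128 normalized counts, or 50.4 per kb, at the 33.6 percentile. Its near copy Cd55b lies beside it on chromosome 1 and was listed at 0, and 11.6% of the 50-base windows of Cd55 occur in Cd55b. The antisense gene Cd55os, which overlaps Cd55, had 5.26 normalized counts. Per kb, C1ra, Serping1, Cd55 and Cfb thus lay between 45.0 and 65.7, each at most 1.17 times the next. This order depended on the length used: per kb of coding sequence, Cd55 had 109, above C1ra with 92.4, Serping1 with 65.7 and Cfb with 57.5.

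Masp1 was the exception. It encodes proteases that circulate with the collectins and ficolins of the lectin pathway, and its mean of 12006 normalized counts equalled 3171 per kb, at the 92.2 percentile. This level was 48.2 times that of C1ra, the next member, and rests on the higher of its transcripts. The other had 1068 per kb, also above C1ra. That value divides by a GENCODE length of 5345 nt, whose last exon runs past the gene end in the RefSeq annotation used here. The RefSeq version counted by the authors is not given, and over a shorter counted length the value would be higher. Per kb of coding sequence Masp1 had 5460 and the next member was Cd55, with 109. Col1a1, a collagen gene of fibroblasts, had 4408 per kb, 1.39 times the level of Masp1. Masp2, the other MASP protease gene, had 227 normalized counts on its long transcript but 2.71 on a short one that shares its first exons. Of the 3058 nt of the long transcript, 1817 lie within exons of Tardbp, a gene on the opposite strand with 9025 normalized counts, so the level of Masp2 is uncertain.

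Masp1 gives rise to MASP-1 and MASP-3, which share their first domains and differ in the protease domain, encoded by several exons in MASP-1 and by a single exon in MASP-3. MASP-1 helps to activate MASP-2 in the lectin pathway, whereas MASP-3 is known to convert the precursor of factor D, a protease of the alternative pathway, to its active form. Both forms were in the table. The transcript NM_001359083, with 11 exons and a single own 3′ exon of 2368 nt, was taken as the MASP-3 form, and NM_008555, with 16 exons, 6 of them its own, as the MASP-1 form. The sequences below show where the transcripts part: 30 bases of the last shared exon (chr16:23474874-23474948, minus strand, GRCm38) in lower case and the first 30 bases of each form's own next exon in capitals, at chr16:23468363-23470730 for MASP-3 and chr16:23465028-23465165 for MASP-1. The first 7 bases after the join are alike.
MASP-3: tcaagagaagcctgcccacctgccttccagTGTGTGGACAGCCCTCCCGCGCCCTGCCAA
MASP-1: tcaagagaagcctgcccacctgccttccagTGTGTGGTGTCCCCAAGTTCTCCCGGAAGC

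The MASP-3 transcript had 12006 normalized counts and the MASP-1 transcript 5711, a ratio of 2.10. Transcripts of 1 gene carried the same mean in 1521 of 7472 genes with several transcripts, or 20.4%. Solved reads, which do not cover Masp1, were whole numbers. Reads on shared exons were therefore taken as counted for both. Counted in this way, the shared reads cancel in the difference, so the own exon of MASP-3 held 6295 normalized counts more than all sequence particular to the MASP-1 transcript, its 6 own exons and the longer part of its first exon. Under this way of counting, at least 52.4% of the count of the MASP-3 transcript fell on its own exon. How the rest divides between the shared exons and that own exon cannot be told from these means. Factor D, the substrate of MASP-3, is encoded by Cfd, which had 8.53 normalized counts, with 4 reads in the lowest library and 15 in the highest. Rtp4, on the opposite strand, overlaps the Masp1 locus and had 87.1 normalized counts.

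**Figure D3:**
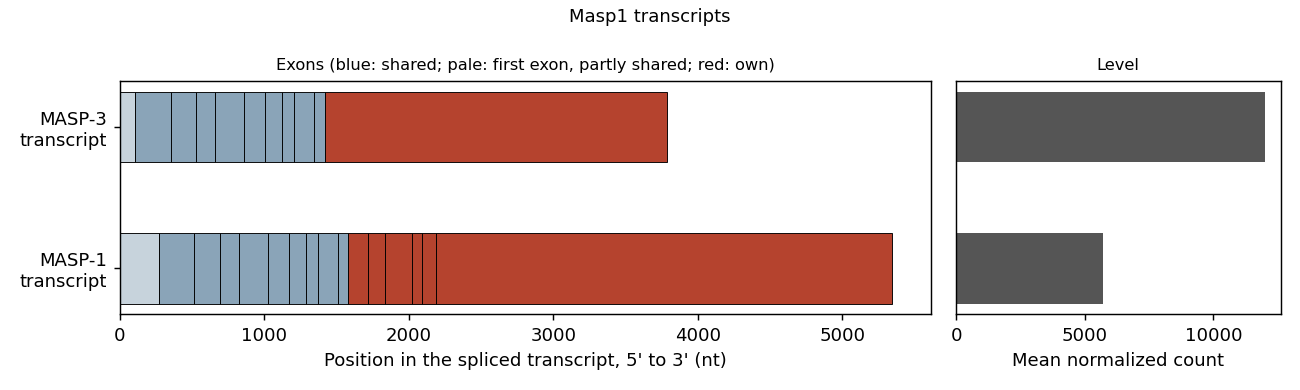
Exons of the MASP-3 and MASP-1 transcripts in spliced order (left, to scale in nt) and their mean normalized counts over 6 libraries (right). Exons are GENCODE models, in which the last MASP-1 exon runs past the gene end in the RefSeq annotation used here. The MASP-3 transcript, which ends in a single own exon of 2368 nt, had 12006 and the MASP-1 transcript 5711 normalized counts.

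Across 50 listed complement genes of all arms, 21 had a mean of at least 10 normalized counts, or 42.0%, beside 56.9% of all genes, and 10 were at 0. Their median was 3.85 normalized counts, under the 43.3 of all genes. Among 10 classical genes, 4 were detected, with C1s1 highest per kb and C1qb at 0. Among 9 lectin genes, 4 were detected, Masp2 among them only by its long transcript. Masp1 led them, followed by Colec12, a membrane collectin, with 3453 normalized counts and 430 per kb, while the mannose-binding lectin genes Mbl1 and Mbl2 and the ficolin gene Fcnb were at 0. Of 4 alternative pathway genes, 3 were detected, with Cfb at 45.0 per kb and Cfp, which encodes the stabilizer properdin, at 44.3, and Cfd lowest at 9.79.

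The terminal components, which build the membrane pore, had the lowest detected share at this minimum, while at a minimum of 50 neither they nor the receptor genes had any gene detected. Of 7 genes, 1 was detected, C8g with 38.5 normalized counts on one transcript but 8.09, below the minimum, on another, while C6, C8b and C9 were at 0. Hc, which encodes C5, held 12 reads over all 6 libraries, and C7 held 1. Regulators are known to protect host cells from these steps. Among 6 soluble regulators 3 were detected, with clusterin (Clu) highest at 409 normalized counts and 226 per kb, 4.02 times Serping1, and vitronectin (Vtn) at 0.

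Among 6 membrane regulators 4 were detected. Cr1l, which encodes the rodent convertase regulator Crry, had 1332 normalized counts but no matched length. Cd59a, whose product blocks the membrane pore, had 361 normalized counts and 200 per kb, 3.96 times Cd55. This ratio would be larger per kb of coding sequence, which spans 369 of 1806 nt in Cd59a and 1170 of 2533 nt in Cd55. Cd46 had 6.68 normalized counts. Of 8 receptor genes 2 were detected, C3ar1 with 43.3 and Itgb2 with 20.6 normalized counts, and Vsig4 was at 0.

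**Figure D4:**
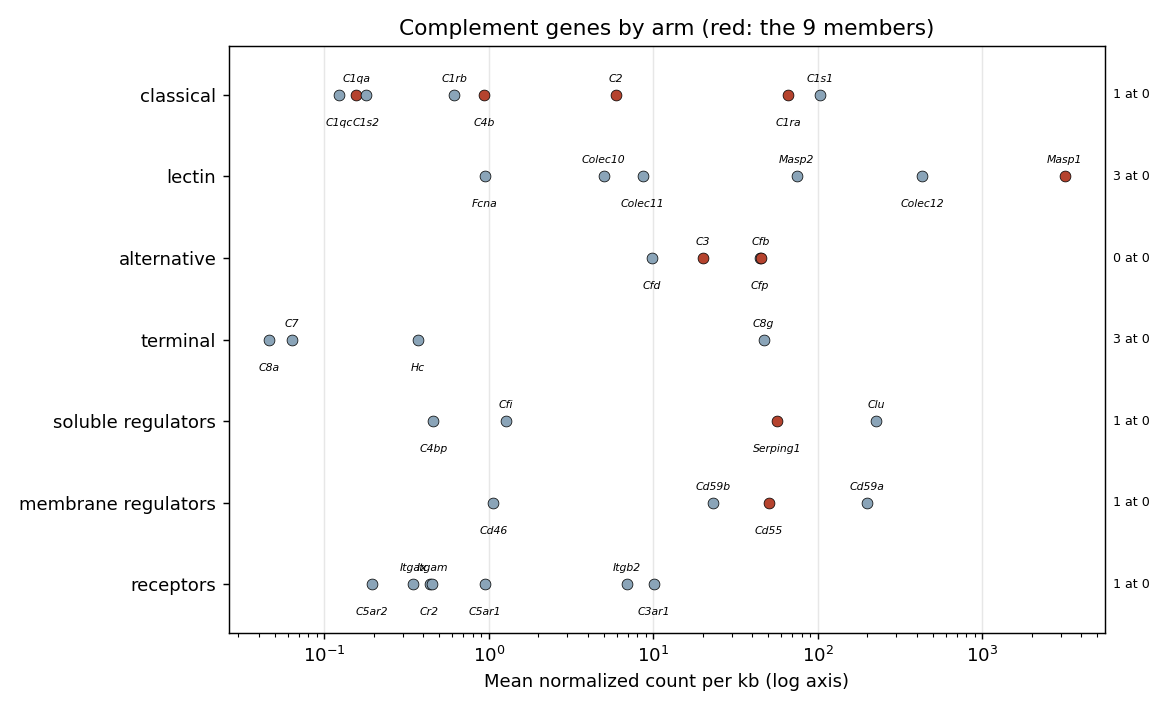
Mean normalized count per kb (log axis) of complement genes by arm, with the 9 members in red; each point is a gene's pooled mean over 6 libraries. Genes at 0 are counted at the right, and C4a and Cr1l, which have no matched length, and a gene not reported here are not drawn; Masp1 lay at 3171 per kb and C8g, the highest terminal gene, at 46.8, and the level of Masp2 is uncertain.

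Receptors and transcription factors that are known to induce complement genes were all detected, 14 of 14 at 10 normalized counts or more, beside 56.9% of all genes. Il6st, the shared signal chain of IL-6 family receptors, had 7407 normalized counts, whereas the IL-6 receptor chain Il6ra had 130. Stat3 had 5813, Rela 5289, Ifngr2 4367 and Ifngr1 3247 normalized counts. Irf1, an interferon-responsive factor, had 965, and Nr1h3, which encodes LXR alpha, had 55.8. Per kb, Il6ra was the lowest of the list with 15.1 and Nr1h3 had 28.5. RNA levels of these genes do not measure the activity of their products.

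The cells' label was checked against markers of fibroblasts and of other cell types that make complement. Of 9 fibroblast markers 7 had at least 10 normalized counts, among them Col1a1 with 26142 and Col1a2 with 23592, but Fap with 3.22 and Lum with 1.33 did not. Of 11 macrophage markers 3 were detected, Cd68 with 257, Cd14 with 233 and Csf1r with 40.1 normalized counts. The other 8 were below the minimum, among them Adgre1 with 1 read in all, Tyrobp at 0, Ptprc with 19 reads over 6 libraries, and C1qb and C1qc, which are also complement genes described above. Of 8 hepatocyte markers only Apob reached the minimum, with a mean of 10.7 but a median over libraries of 8.29, below it. Alb held 6 reads, and Fgb and Serpina1a were at 0. All 5 mesothelial markers were detected, Krt19 with 7400, Upk3b with 605, Msln with 381, Wt1 with 300.3 and Lrrn4 with 109 normalized counts, as were 3 of 4 epithelial markers, among them Krt18 with 1106. Of 5 endothelial markers Kdr, with 2958, and Tek, with 34.4, were detected, and Cdh5 and Pecam1 were not. Of 4 adipocyte markers 2 were detected, Fabp4 with 1250 and Cidec with 29.5. The summed means were 66414 normalized counts for the fibroblast list, 8796 for the mesothelial list (7400 of them from Krt19), 3000 for the endothelial, 1282 for the adipocyte, 1204 for the epithelial, 539 for the macrophage and 17.3 for the hepatocyte list. These sums are not corrected for transcript length and run over lists of unequal size. Per kb, Krt19 had 4696, above Col1a1 with 4408 and Col1a2 with 4411, while the other mesothelial markers had 29.5 to 176. The part of mesothelial or other cells in the complement levels was not tested, and in bulk RNA fewer cells of a type and less RNA per cell cannot be told apart.

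**Figure D5:**
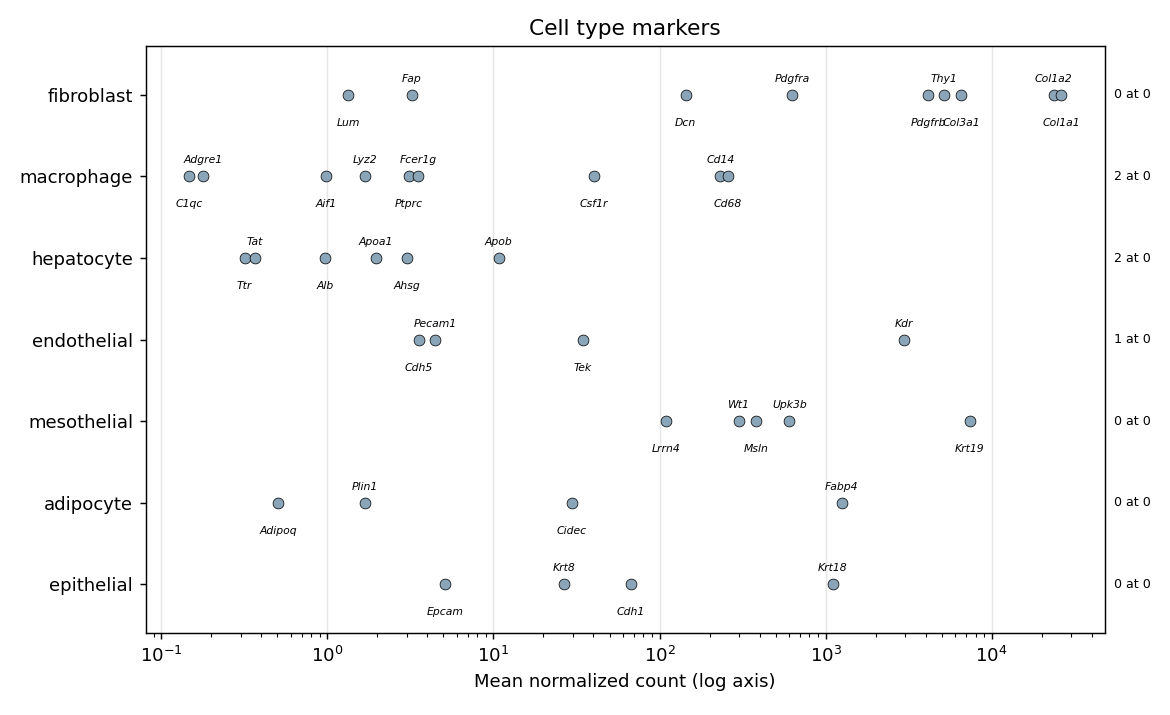
Mean normalized count (log axis) of markers of 7 cell types, each point a gene's pooled mean over 6 libraries, with genes at 0 counted at the right. Col1a1 had 26142 and Krt19 7400 normalized counts, and the macrophage marker Adgre1 had 0.178. Counts are not corrected for length, and per kb Col1a1 had 4408 and Krt19 4696.

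Among common yardstick genes, the members other than Masp1 were low. Actb had 645175 and Gapdh 52974 normalized counts per kb, Hprt had 4230, and Tbp had 117. The value for Tbp rests on a matched transcript of 12794 nt; per kb of its coding sequence it had 1576. On both length scales each of the members other than Masp1 lay below Tbp. Some genes beside the members on their chromosomes had levels that differed from the member's, whereas C1qb and C1qc, beside C1qa, were undetectable as it was. Trip10, next to C3 on the side of its start, had 4352 normalized counts and Tnfsf14, on the other side, 0.306. Zbtb12, next to C2, had 546 normalized counts and Ehmt2, further on, 11873, and Ube2l6, near Serping1, had 502.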

How the data were processed

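Per the labels and the study's methods, reads of 6 total RNA libraries were aligned to mm10 with STAR, counted on RefSeq transcripts with featureCounts and normalized with DESeq2 at default settings by the authors. The deposited signal used here is the authors' mean over the 6 libraries of counts divided by size factors, for 42361 transcripts. The 5 columns that compare the genotypes hold a fold change, its standard error, a statistic and p-values, and were not used; library totals were not analysed here. Transcripts were named with the RefSeq annotation of GRCm38.p6, the assembly of mm10, which left 163 unmatched. Lengths came from GENCODE M21 models matched to RefSeq, for 91.8% of genes with a mean of at least 1; the RefSeq version counted by the authors is not given in the sources used here, so a length per kb can differ from the counted one. Percentiles are over these genes by normalized count per kb.

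A mean is a sum of whole reads, each worth 1 divided by 6 times a library's size factor. Transcripts with 1 read in 1 library gave 6 such steps, and size factors from 0.909 to 1.13. For each gene with a mean up to 25, all combinations of whole reads that sum to its mean within a relative tolerance of 1e-14 were sought, and 6140 of 6140 genes had 1 combination. The solver was tested on simulated data. The libraries carry no sample name and were assigned to no genotype. Higher means were not solved.

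Genes were named by role from lists: complement genes by arm, with the highest and lowest of each counted arm, near copies, inducers, yardsticks, markers and the 2 annotated neighbours on each side. Some listed genes are counted in their lists but not reported here by name. Members and lists were chosen with earlier results of these data known. Python 3.11.15 with numpy 2.4.6, pandas 2.3.3, scipy 1.17.1 and Biopython 1.88 was used. Alternatives changed the transcript, length, filter, scale, chromosomes, minimum mean, tolerance and, after seeing the data, the libraries and the transcript of the lowest mean.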

Additional observations from a re-analysis of the deposited data

How the results depend on the processing

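Of the members, only Masp1 had transcripts with different means: its level was 5711 normalized counts with the transcript of the second highest mean and 8858 as the median over transcripts, against 12006, because both transcripts were counted separately. For the other 8 members the choice of transcript could not change the level, since 7 have 1 transcript and both of Cfb have the same mean. With a minimum mean of 50 or 1 in place of 10, the number of detected complement genes of all arms was 13 or 34 in place of 21, and that of members stayed within 1.5 times, at 6 or 8 in place of 7, beside 49.3% of all genes at 50 and 68.4% at 1. By arm, classical genes numbered 2 in place of 4 at a minimum of 50. At a minimum of 1, receptors numbered 6 in place of 2, soluble regulators 5 in place of 3 and terminal genes 2 in place of 1. With the transcript of the lowest mean, an alternative chosen after seeing the data, 19 complement genes were detected, without Masp2 and C8g. Coding in place of exonic length raised the levels per kb of the members by 1.03 to 2.16 times, Cd55 from 50.4 to 109 and Masp1 from 3171 to 5460. Of 31 alternative percentiles, 23 left the 95% exact binomial interval of the percentile, which reflects only the number of genes ranked: without length correction C3 stood at 33.0 in place of 25.6, with no filter at 49.6, and among genes with a mean of at least 10 at 11.9. C2 stood at 3.38 among the latter in place of 16.9. A tolerance 10 times wider left 6140 genes with 1 combination of reads. No paired analysis was possible because the results come from no test and the pooled mean carries no replicate numbers, and labelled replicates could not be left out. Leaving out each of the 6 unnamed libraries in turn, chosen after seeing the data, was possible for the solved members: the mean ranged from 9.42 to 18.7 for C2, from 3.71 to 5.62 for C4b and from 0 to 0.195 for C1qa. Without the library with a size factor of 0.909, C2 was below 10 and 6 of 9 members were detected. Depth limits C1qa, with 1 read, to a statement on detection.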

Other observations

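The reads of low complement genes are given over the 6 libraries, which the labels put in no group. C2 had 0, 1 and 2 reads in the libraries with size factors of 0.987, 1.05 and 1.13, and 16, 28 and 42 reads in those with 0.936, 1.03 and 0.909. Whether these values form separate clusters was not tested. The C4a reads, from the highest size factor to the lowest, were 13, 16, 44, 7, 26 and 24, and stood at the 84.7 percentile of 1112 genes with similar means by their ratio of variance to mean. In the same order, Colec10, which encodes a collectin of the lectin pathway, had 37, 35, 15, 32, 7 and 15 reads, at the 74.6 percentile of those genes. Colec11, the gene of its partner collectin, had 7, 6, 6, 1, 17 and 8 reads, at the 77.1 percentile of 1482 genes with means between 3 and 10. The reads of Cd59b, 14, 17, 22, 26, 12 and 19, were more even, at the 19.8 percentile.

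The epithelial marker Epcam had 1, 7, 4, 0, 17 and 1 reads, at the 97.0 percentile of the 1482 genes. The fibroblast marker Fap had 1, 12, 1, 6, 0 and 0 reads, at the 91.3 percentile of the same genes.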
